A study of Rattus norvegicus with 12 samples.

Results

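The neurotrophins Bdnf and Ntf3 and the neurotrophin receptors Ntrk2, Ntrk3 and Ngfr were followed in rat dorsal root ganglia during the first hours after a sciatic nerve lesion. These 5 genes, chosen by name, were 5 of the 29622 genes tested on the array. The study used 24 male Sprague-Dawley rats in 4 groups of 6, and a segment of 1 cm was removed from the left sciatic nerve of every animal. The ganglia (L4-6) were taken 0.5 h, 3 h, 6 h or 9 h later, and 3 one-colour arrays were analysed for each time, 12 in all. Body weight but no age was given. Every group carried the lesion, and no uninjured group is among the samples analysed here, so 0.5 h after resection was the earliest reference. Which rats contributed to which array was not stated, so the p-values measure the spread between arrays, which may be partly technical.

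Neurotrophins are secreted growth factors on which sensory neurons depend for survival and for keeping their mature properties. They are made as precursors that proteases cut to the mature form. Bdnf and Ntf4 act on the receptor tyrosine kinase TrkB (Ntrk2), and neurotrophin-3 (Ntf3) acts on the related TrkC (Ntrk3), which marks proprioceptors. All of them also bind p75 (Ngfr), a receptor that has no kinase and is made by neurons and by glia. Bdnf is itself made by sensory neurons and is a known injury-responsive gene in these ganglia.

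The 5 genes were measured by 7 probes of 60 bases. The sequences of 3 probes in coding sequence are shown, to mark which part of the transcript each of them reports. They are those of the array design, placed on rat build rn4. For Ntrk2 the probe shown is not the one that stood for the gene. The Bdnf probe spans the start codon (in capitals), which the alternative Bdnf transcripts share. The Ntrk2 probe lies in the extracellular part, which the full-length and the truncated TrkB receptors have in common. The Ntf3 probe lies in the part that encodes the propeptide.
Bdnf, chr3_random:976345-976404, plus strand: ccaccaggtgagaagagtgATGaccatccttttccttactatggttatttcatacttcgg
Ntrk2, chr17:11754284-11754343, minus strand: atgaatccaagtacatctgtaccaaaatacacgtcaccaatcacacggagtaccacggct
Ntf3, chr4:162436573-162436632, minus strand: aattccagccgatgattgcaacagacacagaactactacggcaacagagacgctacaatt
The other 4 probes were at base 3677 of the Bdnf transcript, 3036 bases downstream of the first on the genome, at base 3972 of the Ntrk2 transcript, 259101 bases from the other Ntrk2 probe on the genome, at base 2607 of Ntrk3 (chr1:133925545-133925604) and at base 2916 of Ngfr (chr10:84263082-84263141). The brighter probe of a gene stood for it, which was the start-codon probe for Bdnf and the probe at base 3972 for Ntrk2. Which TrkB forms the probe at base 3972 detects was not examined.

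Levels below are log2 signals relative to the 75th percentile of the array, so a level of 0 is a signal at that percentile. Brightness depends on the probe, so levels were compared between times and not between genes. A gene was called where limma's moderated test gave a Benjamini-Hochberg adjusted p under 0.05 over all 29622 genes. Neuronal markers (Prph, Scn10a, Isl1, Pou4f1, Calca) and the glial marker Fabp7 were well above background on 12 of 12 arrays. The 0.5 h arrays shared a slide, as did the 3 h arrays and the 9 h arrays, so slide and time cannot be told apart for these times. The 6 h arrays lay on 2 slides, with replicate 1 on one and replicates 2 and 3 on the other, and shared their scan day with the 3 h arrays. Local background was higher on the 0.5 h arrays (64 to 86 against 37 to 45), and 63.2 to 67.5% of probes were well above background there against 82.3 to 85.3% later, which bears on the dimmest genes.

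**Figure D1:**
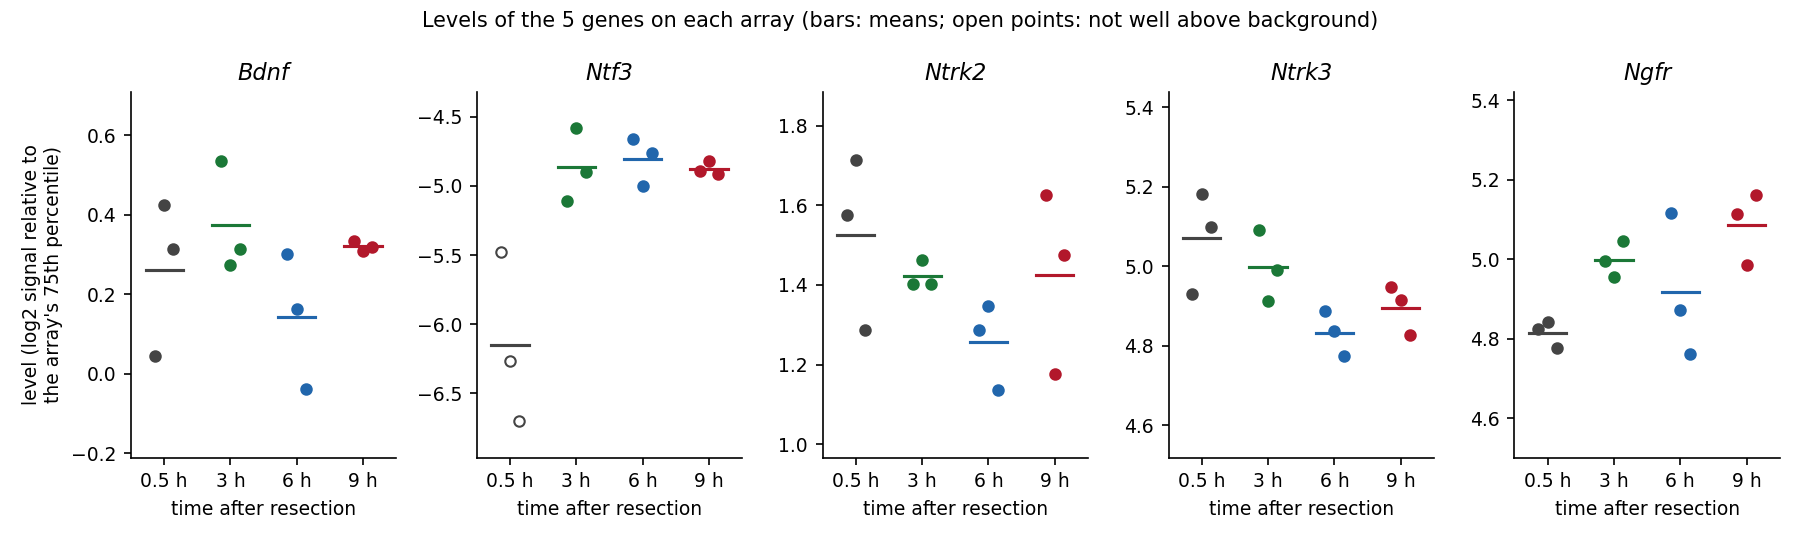
Level (log2 signal relative to the 75th percentile of the array) of each gene on 12 arrays by time after resection; points are arrays, bars are means, and open points were not well above background. The vertical scale is wider for Ntf3. Ntf3 lay between -6.70 and -5.48 at 0.5 h and between -5.11 and -4.58 later, while the 3 Ngfr arrays at 9 h (4.99 to 5.16) lay above the 3 at 0.5 h (4.78 to 4.84).

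Bdnf, by its start-codon probe, showed no called difference between any of the times. Its levels were 0.05, 0.42 and 0.31 on the 0.5 h arrays, 0.54, 0.27 and 0.31 at 3 h, 0.30, 0.16 and -0.04 at 6 h and 0.33, 0.31 and 0.32 at 9 h. The 9 h arrays lay close together and inside the range of the 0.5 h and 3 h arrays, and the 6 h arrays were the lowest on average. The means were 0.26 ± 0.19 (SD, n = 3) at 0.5 h, 0.37 ± 0.14 at 3 h, 0.14 ± 0.17 at 6 h and 0.32 ± 0.01 at 9 h. In that order from 3 h down through 9 h, 0.5 h and 6 h, no neighbouring means differed by more than the larger of their SDs. Against 0.5 h, Bdnf was 1.04-fold at 9 h, with a 95% interval of 0.869 to 1.25 (limma adjusted p = 0.723). The widest difference, 6 h against 3 h, was -0.23 (SE 0.12, limma adjusted p = 0.242). The limma F test over all times gave an adjusted p of 0.359.

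The second Bdnf probe, in the 3′ untranslated region, was printed as 10 spots on each array. Its levels were -0.45, -0.25 and -0.39 at 0.5 h, -0.18, -0.36 and -0.32 at 3 h, -0.24, -0.39 and -0.56 at 6 h and -0.01, -0.15 and -0.13 at 9 h. All 3 arrays of 9 h lay above every array of the other times. In the fit over 34836 kept probes, 9 h was higher than 6 h by 0.30 (SE 0.09, limma adjusted p = 0.0421) and differed from 0.5 h by 0.26 (SE 0.09, limma adjusted p = 0.0543). The call against 6 h was lost without 0.5 h replicate 3, without 3 h replicate 3, without 6 h replicate 2 or 3, or without any one 9 h array (limma adjusted p = 0.0516 to 0.153). It was also lost with the common floor (limma adjusted p = 0.0513), the replicate block (0.0523), only the 2 times in the fit (0.0824) and normexp (0.26, limma adjusted p = 0.545), and with arrays scaled to their median the difference was 0.08 (limma adjusted p = 0.621). The call against 0.5 h was made without 0.5 h replicate 2 (0.32, limma adjusted p = 0.0454), without 6 h replicate 1 (0.0406) or 3 (0.0403), and with cyclic loess (0.0439), trend and robust variances (0.0397) or the slide block (0.00444). The slide block, slide as a random effect, is informed by the 6 h arrays only and called far more genes in every comparison. The spots of this probe had an SD of 0.037 to 0.084 within an array, with a median of 0.058, and its SD between the arrays of a time was 0.073 to 0.159. The start-codon probe gave 0.18 for 9 h against 6 h (limma adjusted p = 0.297), in the same direction, and 0.06 for 9 h against 0.5 h.

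**Figure D2:**
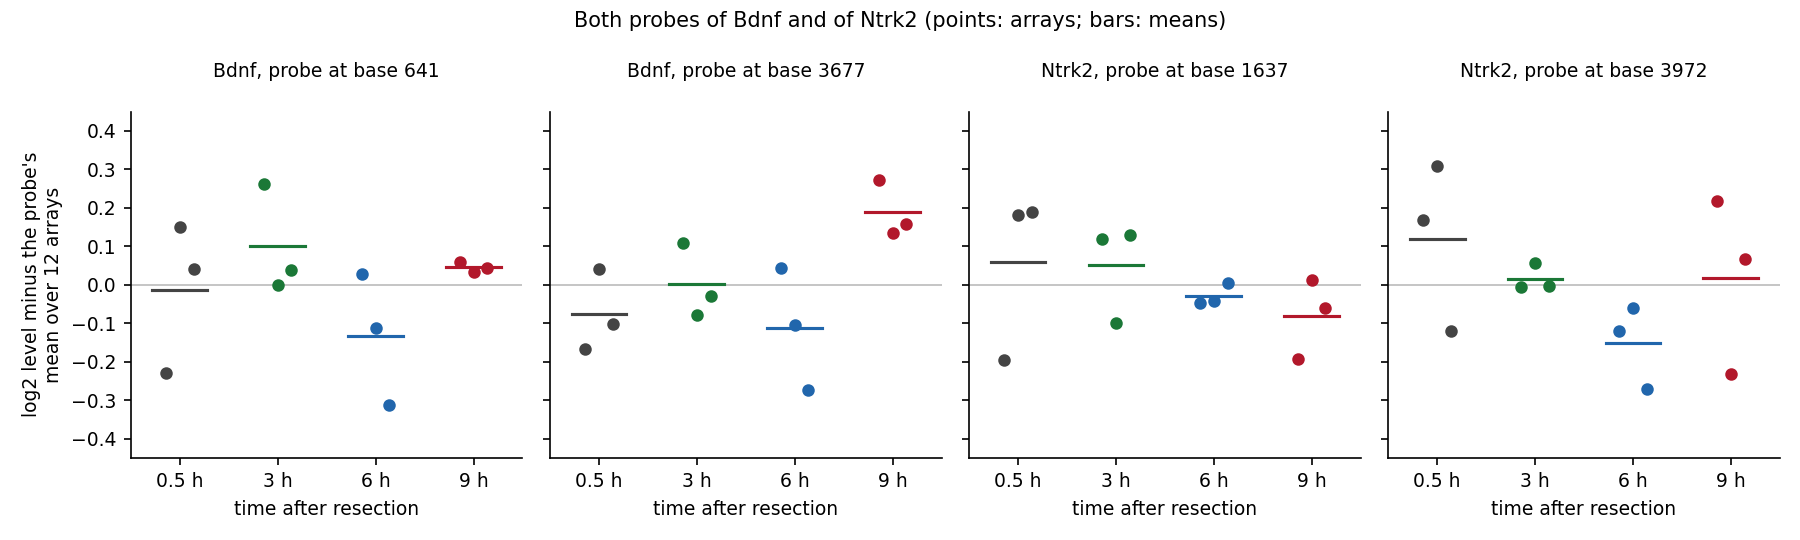
Log2 level minus the mean over 12 arrays for both probes of Bdnf (bases 641 and 3677) and both probes of Ntrk2 (bases 1637 and 3972) by time after resection; points are arrays and bars are means. The 9 h arrays are the highest 3 for the Bdnf probe at base 3677 only, where they stand 0.30 above the 6 h mean.

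Ntf3 was dim at all times, and it was well above background on 0 of 3 arrays at 0.5 h and on 3 of 3 at each later time. Its signals were 41.3, 23.3 and 16.9 intensity units at 0.5 h, 51.9, 78.8 and 56.3 at 3 h, 73.5, 53.6 and 73.5 at 6 h and 63.7, 65.1 and 59.9 at 9 h. Every later array lay above every 0.5 h array, and the arrays of 3 h, 6 h and 9 h overlapped. The mean levels were -6.15 ± 0.62 (SD, n = 3) at 0.5 h, -4.86 ± 0.26 at 3 h, -4.81 ± 0.18 at 6 h and -4.87 ± 0.05 at 9 h. Ntf3 was called against 0.5 h at 3 h (limma adjusted p = 0.00741), at 6 h (0.0110) and at 9 h (0.00517). A probe was kept if all arrays of any time were well above background, and that of Ntf3 passed only through the later times. These p-values therefore give no independent support for a rise. The lowest signal well above background on the 0.5 h arrays averaged -4.74, above the later Ntf3 means, so no fold change is given. With signals below a common detection floor set to that floor the difference was 0.01 at 3 h and 0 at 6 h and 9 h. That floor (-4.61) lay above every Ntf3 level except that of 3 h replicate 2 (-4.58). This setting therefore could not show a difference, and it says nothing on the calls. The differences were uncalled with normexp background correction (limma adjusted p = 0.9999, 0.871 and 0.374) and with quantile scaling (0.0521, 0.0581 and 0.111). With only the 2 times in the fit the calls at 3 h and 6 h were lost (limma adjusted p = 0.0503 and 0.0592). With the local background capped, normexp turned the differences to -0.10, -0.12 and -0.05, none of them called. Among 3 h, 6 h and 9 h the largest difference was -0.07 (9 h against 6 h, 95% interval -0.65 to 0.52, limma adjusted p = 0.881).

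Ntf4, the second TrkB ligand, was likewise dim. It was also well above background on 0 of 3 arrays at 0.5 h and on every later array, with signals of 14.9 to 20.0 at 0.5 h and 27.7 to 59.7 later. It too was called against 0.5 h at 3 h, 6 h and 9 h (limma adjusted p = 0.00906, 0.0398 and 0.00321), and no fold is given for the same reason. Its probe likewise passed the filter only through the later times, so these p-values give no independent support for a rise. With the common detection floor the Ntf4 differences were 0 at all 3 times. Every Ntf4 level lay below that floor (-4.61), so this outcome was fixed and says nothing on the calls. With normexp none was called (limma adjusted p = 0.9999, 0.871 and 0.383). Capped normexp gave -0.01, -0.17 and 0.04, also uncalled. The 6 h call was lost as well with the replicate number as a block (limma adjusted p = 0.0731) and with only the 2 times in the fit (0.0664).

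**Figure D3:**
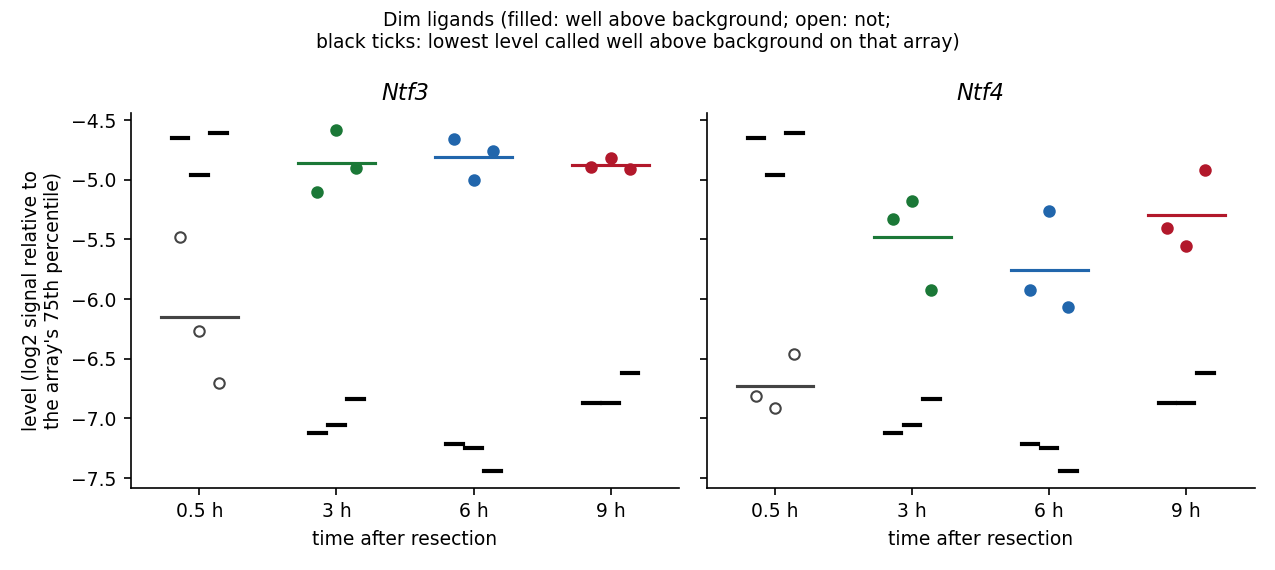
Levels of the dim ligands Ntf3 and Ntf4 on each array by time after resection (log2 signal relative to the 75th percentile); filled points were well above background, open points were not, bars are means and black ticks give the lowest level called well above background on that array. At 0.5 h the ticks lie between -4.96 and -4.61, above every Ntf3 and Ntf4 point, and later between -7.44 and -6.62, below every point.

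Among the receptors, Ntrk2 (TrkB) showed no called difference. At its brighter probe the levels were 1.58, 1.72 and 1.29 at 0.5 h, 1.40, 1.46 and 1.40 at 3 h, 1.29, 1.35 and 1.14 at 6 h and 1.63, 1.18 and 1.47 at 9 h. The 0.5 h and 9 h arrays were spread widest and overlapped all other times, and the 6 h arrays lay below the 3 h arrays without overlap. The means fell in the order 0.5 h (1.53 ± 0.22, SD, n = 3), 9 h (1.42 ± 0.23), 3 h (1.42 ± 0.03) and 6 h (1.26 ± 0.11). The largest difference, 6 h against 0.5 h, was -0.27 (SE 0.13, 95% interval 0.677- to 1.02-fold, limma adjusted p = 0.206). The probe in the extracellular part had means of 0.38 ± 0.22, 0.37 ± 0.13, 0.29 ± 0.03 and 0.24 ± 0.10 (SD, n = 3) at 0.5 h, 3 h, 6 h and 9 h. Its largest difference was -0.14, 9 h against 0.5 h (SE 0.11, limma adjusted p = 0.359).

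Ntrk3 (TrkC), the receptor of proprioceptors, had its lowest mean at 6 h. Its levels were 4.93, 5.18 and 5.10 at 0.5 h, 5.09, 4.91 and 4.99 at 3 h, 4.89, 4.84 and 4.77 at 6 h and 4.95, 4.91 and 4.83 at 9 h. The 6 h arrays lay below all arrays of 0.5 h and of 3 h, and the 9 h arrays overlapped the other times. The means were 5.07 ± 0.13 (SD, n = 3), 4.998 ± 0.09, 4.83 ± 0.06 and 4.90 ± 0.06 in order of time. The difference of 6 h from 0.5 h was -0.24 (SE 0.08, 0.848-fold, 95% interval 0.751 to 0.958 before adjustment), and it was not called (limma adjusted p = 0.0749). That of 9 h from 0.5 h was -0.17 (SE 0.08, limma adjusted p = 0.113). With arrays scaled to their median the lowest mean was that of 9 h, which was called lower than 0.5 h (-0.30, limma adjusted p = 0.0329) and lower than 3 h (-0.30, limma adjusted p = 0.0316). The difference of 6 h from 0.5 h was called with capped normexp background (limma adjusted p = 0.0470) and with trend and robust variances (0.0425). Slide as a random block called 6 h (0.0114) and 9 h (0.0131) against 0.5 h. Only the 6 h arrays inform that block, and it raised the F test calls over all genes from 13084 to 21922, so its calls add little. Without 0.5 h replicate 1, the lowest array of that time, the differences of 6 h and 9 h from 0.5 h were -0.31 and -0.25 and were called (limma adjusted p = 0.0366 and 0.0398).

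Ngfr (p75) was the one receptor among the 5 genes that was called, as higher at 9 h than at 0.5 h. By the limma F test over all times it was not called (adjusted p = 0.108). Its levels were 4.82, 4.84 and 4.78 at 0.5 h, 4.996, 4.96 and 5.05 at 3 h, 5.12, 4.87 and 4.76 at 6 h and 5.11, 4.99 and 5.16 at 9 h. All arrays of 3 h and of 9 h lay above all arrays of 0.5 h. The 6 h arrays were spread widest, from below every 0.5 h array to above every 3 h array, with the replicate on a slide of its own highest. The means were 4.81 ± 0.03 (SD, n = 3), 4.999 ± 0.04, 4.92 ± 0.18 and 5.09 ± 0.09 in order of time. Ngfr was 1.21-fold higher at 9 h than at 0.5 h (95% interval 1.05 to 1.39, log2 0.27, SE 0.09, limma adjusted p = 0.0392). At 3 h it differed from 0.5 h by 0.19 (SE 0.09, limma adjusted p = 0.164). In bulk tissue, more cells that make a transcript and more of it per cell cannot be told apart.

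The Ngfr call depended on the setting. The median gene was 0.11 higher at 9 h than at 0.5 h, and with arrays scaled to their median that shift was -0.02 and the Ngfr difference 0.15 (limma adjusted p = 0.296). The call was also lost with normexp background correction (0.16, limma adjusted p = 0.505), and on leaving out any one 0.5 h array, 3 h replicate 1, 6 h replicate 2, or 9 h replicate 1 or 3 (limma adjusted p = 0.0527 to 0.117, differences 0.24 to 0.29). Of 20 Schwann cell and satellite glia markers, which cells also make Ngfr, 2 were called higher and 3 lower at 9 h than at 0.5 h, with a median difference of -0.02 (33.8% of all genes were called, with a median of 0.11). With median scaling 0 were called higher and 4 lower, with a median of -0.15. Their mean, relative to the 12 arrays, ranged from 0.05 to 0.16 at 0.5 h and from -0.02 to 0.10 at 9 h. Their part in the result was not tested.

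**Figure D4:**
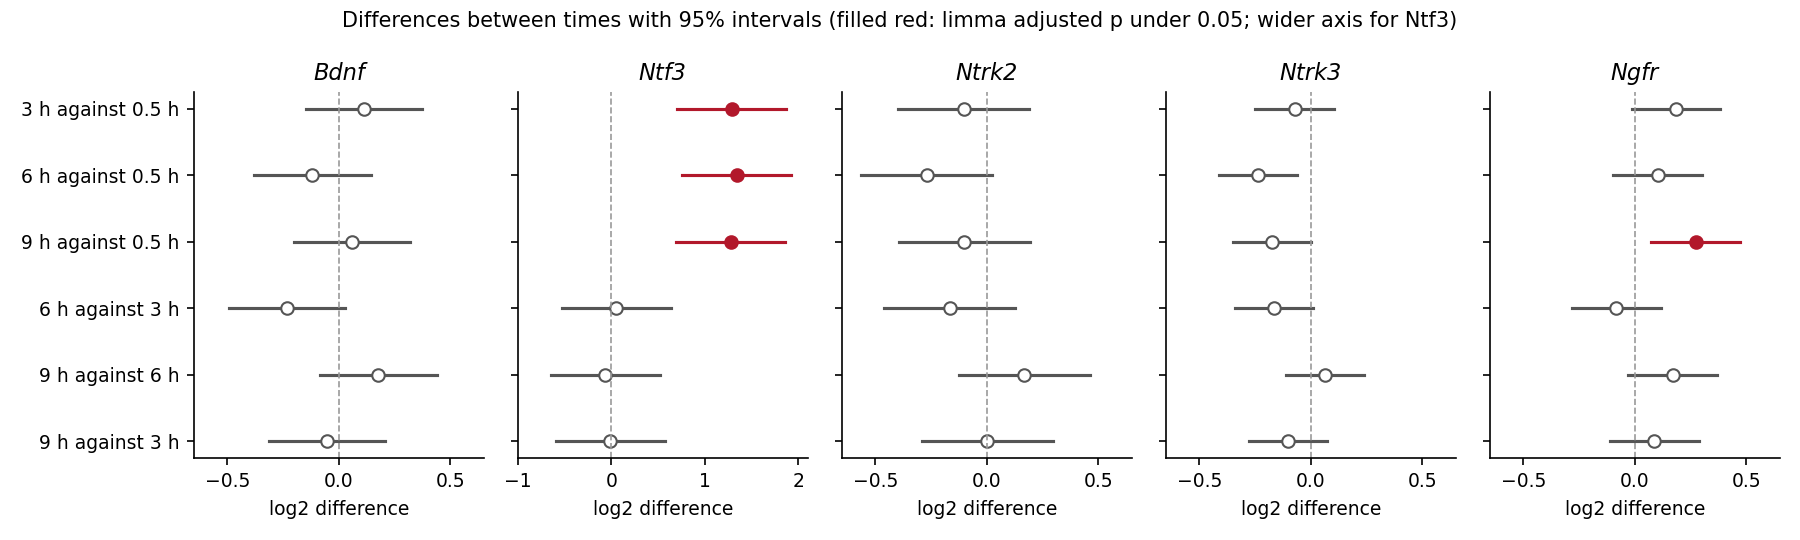
Log2 difference between times for each gene with its 95% interval, in 6 comparisons; filled red points had a limma adjusted p under 0.05, and the axis is wider for Ntf3. Only the 3 Ntf3 differences against 0.5 h and the Ngfr difference of 9 h against 0.5 h (0.27) are filled.

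Of the 5 genes, 1 was called at 3 h against 0.5 h (Ntf3), against 23.3% of all genes. At 6 h against 0.5 h 1 was called (Ntf3), against 13.3% of all genes, and at 9 h against 0.5 h 2 were called (Ntf3 and Ngfr), against 33.8%. By limma 0 were called for 6 h against 3 h (10.8% of all genes), 9 h against 6 h (25.4%) and 9 h against 3 h (23.5%), and in these 3 comparisons 0 had an unadjusted p under 0.05. By the limma F test over all times 1 of 5 was called (Ntf3), against 44.2% of all genes. Without regard to any test, the compared arrays separated fully for 2 of the 5 genes at 3 h against 0.5 h (41.1% of all genes), for 2 each when 6 h (37.1%) or 9 h (48.9%) was set against 0.5 h, and for 2 when 6 h was set against 3 h (35.6%). The 9 h arrays separated from 6 h for 1 gene (44.5%) and from 3 h for 0 (40.2%). Ntf3 passed the filter only through the later times, so its calls and separations against 0.5 h in these counts give no independent support for a rise. At 9 h against 0.5 h, 6948 genes were called higher and 3051 lower, and with arrays scaled to their median 4284 and 5081. The 4 genes other than Ntf3 were compared in 24 ways, of which 1 was called and 2 had an unadjusted p under 0.05. Over those 24, at the brighter probes and as first scaled, the unadjusted 95% intervals reached at most from 0.677- to 1.39-fold. They do not cover the second probes, other scalings or slide effects, so they do not bound the change of these genes.

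The other genes of the pathway were taken from lists. Normexp background correction, which called far fewer genes in every comparison, ended most of the calls of pathway and marker genes named here (S100b was not examined). It left those of Pcsk6, Rap1b, Dusp6, Spry4 and Egr1 at 3 h against 0.5 h, of Ptpn11 at 6 h against 3 h, and of Egr2 and Junb at 9 h against 0.5 h. Of 25 tested ligands, precursor proteases and p75 partners, 1 was called higher and 1 lower at 3 h against 0.5 h (6 and 1 with median scaling), and 5 higher and 3 lower at 9 h against 0.5 h. Over all genes 23.3% and 33.8% were called in these comparisons, and the list's median difference at 9 h was 0.07, against 0.11. With arrays scaled to their median the split at 9 h turned to 3 higher and 7 lower. Pcsk6, a protease that cuts proneurotrophins, was lower at 3 h than at 0.5 h by 0.734-fold (limma adjusted p = 0.00418). Furin, the best known such protease, was 1.27-fold higher at 9 h than at 0.5 h (limma adjusted p = 0.00975), a call lost with capped normexp background (0.14, limma adjusted p = 0.320). Between 3 h and 6 h, which shared a scan day, the p75-binding kinase Ripk2 was called higher (1.25-fold, limma adjusted p = 0.00713) and Sorcs3, a receptor of the sortilin family that binds proneurotrophins, lower (0.737-fold, limma adjusted p = 0.00995). Adam17, a metalloprotease that cleaves p75, was 1.36-fold higher at 9 h than at 6 h (limma adjusted p = 0.00702), and not called with arrays scaled to their median (0.22, limma adjusted p = 0.0858).

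Among 44 adaptors and kinases downstream of the Trk receptors, 5 were called higher and 2 lower at 3 h against 0.5 h, 1 higher and 2 lower at 6 h against 3 h, and 9 higher and 5 lower at 9 h against 0.5 h. The list's median differences were 0.04, -0.08 and 0.10, against 0.03, -0.07 and 0.11 for all genes, of which 23.3%, 10.8% and 33.8% were called. With arrays scaled to their median the counts were 12 higher and 1 lower at 3 h against 0.5 h, and 1 higher and 11 lower at 9 h against 0.5 h. The phosphatase Ptpn11, which couples receptors to Ras, was lower at 6 h than at 3 h (0.632-fold, limma adjusted p = 0.000921), and its other probe was also called lower (-0.48, limma adjusted p = 0.0152). The adaptor Crk was lower at 9 h than at 6 h (0.725-fold, limma adjusted p = 0.00292), and the Trk adaptor Frs3 was higher (1.61-fold, limma adjusted p = 0.00488; not called with quantile scaling, limma adjusted p = 0.103). Rap1b, a small GTPase, was lower at 3 h than at 0.5 h (0.606-fold, limma adjusted p = 0.000236) and higher at 6 h than at 3 h (1.47-fold, limma adjusted p = 0.00164), but its other probe pointed the opposite way in both comparisons (0.16 and -0.25), uncalled.

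Feedback inhibitors of receptor tyrosine kinases, which Trk signalling both induces and is limited by, were called in both directions. Of 14 tested, 3 were called higher and 2 lower at 3 h against 0.5 h (23.3% of all genes were called), 2 in each direction at 6 h against 3 h (10.8%), and 4 higher and 2 lower at 9 h against 0.5 h (33.8%; 2 higher and 4 lower with median scaling). Their median differences were -0.06, -0.10 and 0.01, against 0.03, -0.07 and 0.11 for all genes. Dusp6, a MAP kinase phosphatase, was 0.534-fold at 3 h against 0.5 h (limma adjusted p = 0.00093) and then 1.65-fold at 6 h against 3 h (limma adjusted p = 0.00505). Spry4, an inhibitor of Ras activation, was 0.436-fold at 3 h against 0.5 h (limma adjusted p = 3.0e-05). The mean of its 2 probes was not called (limma adjusted p = 0.0502). Its other probe gave -0.39, uncalled, and pointed the opposite way to the first for 6 h against 3 h. Errfi1, an inhibitor of the EGF receptor, was 0.527-fold at 6 h against 3 h (limma adjusted p = 0.00365).

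Of 24 transcription factors and genes that neurotrophin signalling induces, 2 were called higher and 1 lower at 3 h against 0.5 h, and 3 higher and 4 lower (3 and 5 under median scaling) at 9 h against 0.5 h. Over all genes 23.3% and 33.8% were called in these comparisons, and the list's median differences were 0.02 and 0.07, against 0.03 and 0.11. Egr1, an immediate early gene, was lower at 3 h than at 0.5 h (0.478-fold, limma adjusted p = 0.00401), and Egr2, a related factor of myelinating Schwann cells, was lower at 9 h than at 0.5 h (0.403-fold, limma adjusted p = 0.00228). Junb was 1.60-fold higher at 9 h than at 0.5 h (limma adjusted p = 0.00365) and Nrn1, the neurite growth gene neuritin, 0.790-fold (limma adjusted p = 0.00412). Creb1, which binds the Bdnf promoter and mediates neurotrophin responses, was 1.25-fold higher at 9 h than at 3 h (limma adjusted p = 0.00174), with its other probe also called (0.29, limma adjusted p = 0.00235), and was not called with arrays scaled to their median (0.12, limma adjusted p = 0.169).

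Of 15 markers of proprioceptors and other large sensory neurons, the cells that make Ntrk3, 6 were called higher and 0 lower at 9 h against 6 h by limma (8 and 0 at an unadjusted p under 0.05), with a median difference of 0.23 against 0.11 for all genes. Over all genes 19.5% were called higher and 5.87% lower in this comparison. With arrays scaled to their median 3 of the 15 were called higher and 1 lower, with a median of 0.01. Runx3, the transcription factor of proprioceptors, was 1.83-fold higher (limma adjusted p = 0.00226). Esrrb had mean levels of -2.91, -3.45, -2.76 and -2.25 in order of time. At 9 h it was 2.30-fold higher than at 3 h, where its mean was lowest (limma adjusted p = 0.000714). In that comparison 5 of the 15 were called higher and 0 lower, with a median of -0.03 against 0.09 for all genes, and median scaling gave 4 higher and 2 lower with a median of -0.23. Over all genes 17.5% were called higher and 5.94% lower there. Ntrk3 itself gave 0.06 and -0.10 for 9 h against 6 h and against 3 h (limma adjusted p = 0.599 and 0.393), and -0.16 and -0.30 with median scaling (limma adjusted p = 0.210 and 0.0316). Of 19 markers of small sensory neurons, 2 were called higher and 0 lower by limma at 9 h against 6 h (25.4% of all genes were called). At an unadjusted p under 0.05 the counts were 4 and 0, and the list's median was 0.12. Median scaling gave 0 higher and 1 lower with a median of -0.10. Of the glial markers, the myelin gene Pmp22 was lower at 6 h than at 0.5 h (0.722-fold, limma adjusted p = 0.00653), and not called with quantile scaling (limma adjusted p = 0.104). In that comparison 0 of the 20 were called higher and 4 lower (13.3% of all genes), and at 6 h against 3 h 2 went each way (10.8%). S100b changed more, 0.489-fold at 3 h against 0.5 h and 2.16-fold at 6 h against 3 h (limma adjusted p = 0.000125 and 0.000104). Its dependence on the setting was not tested.

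Markers of other tissue were compared in the same way. Of 14 skeletal muscle and fat markers, 0 were called by limma in any of the 6 comparisons (10.8 to 33.8% of all genes were called), and 0 had an unadjusted p under 0.05. Yet their median differences from 0.5 h were 1.24 at 3 h, 1.30 at 6 h and 1.05 at 9 h, against 0.03, -0.03 and 0.11 for all genes. The arrays of a time were spread widely, so the lack of calls does not show that these markers were unchanged. Their mean relative to the 12 arrays ranged from -1.37 to -0.29 at 0.5 h, from -1.33 to 1.21 at 3 h, from -0.89 to 1.72 at 6 h and from -0.93 to 0.94 at 9 h. Of 12 leukocyte and red blood cell markers, 0 were called by limma, with at most 1 at an unadjusted p under 0.05 in a comparison, and their mean ranged from -0.30 to 0.12 at 0.5 h, from -0.55 to -0.03 at 3 h, from -0.25 to 1.02 at 6 h and from -0.20 to 0.38 at 9 h. With median scaling 2 were called lower at 9 h than at 6 h and 1 lower than at 3 h. The part of either in the values of the 5 genes was not tested.

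The pattern of each gene over the 12 arrays is given as a description, since the arrays of 0.5 h, of 3 h and of 9 h each shared a slide. Among 10522 genes with a gene symbol and well above background on every array, Bdnf was most like Ostalpha, Thsd7a and Penk1 (Pearson r = 0.910, 0.891 and 0.881), and Ntrk2 was most like Psd3, Cpne5 and Bcmo1 (0.875, 0.830 and 0.827). Ntrk3 was most like Tex15, Smap2 and Lrrc4c (0.942, 0.940 and 0.932), and Ngfr was most like Pbx4, Hspb8 and Slc7a1 (0.948, 0.943 and 0.942). Between the genes themselves the highest r was 0.688, for Bdnf and Ntrk3, and the lowest was -0.18, for Ntrk3 and Ngfr. The ligand Bdnf and its receptor Ntrk2 gave 0.325.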

How the data were processed

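Total RNA of the ganglia was labelled with Cy3 and hybridised to one-colour Agilent arrays, per the labels' protocols. The deposited scanner files hold the processed signal, an intensity that Agilent Feature Extraction 10.5.1.1 had background-corrected, per the file headers. The authors also deposited a joint table of all arrays. It holds the same intensity values and was not run separately. Control spots and outlier spots were dropped, spots of a probe averaged, and log2 signals expressed relative to each array's 75th percentile. A probe was kept where every array of 1 or more times had it well above background (34836 probes), and the brightest probe stood for a gene (29622 genes). All times were fitted together with limma 3.58.1 in R 4.3.3 and tested on simulated data. With 3 arrays a time, the number of arrays limits the precision. No gene name was changed from the array design.

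The 5 genes and the lists of pathway and marker genes were chosen with earlier results of these data known. The naming rule allowed Ntf4, up to 4 called genes of each list and comparison by size of the difference, and the 3 nearest genes by correlation. The list genes named were picked by hand from those it allowed. Apart from S100b, which was not refitted, none of their calls ended on leaving out 1 array. For the allowed genes that are not named no such fit is reported, so their absence is not a result. Alternatives covered background correction, scaling, filters, probe rule, variance model, slide, replicate block and leaving out each array. Some items are not reported here.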

Additional observations from a re-analysis of the deposited data

How the results depend on the processing

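With normexp background correction the genes called fell to 650 (3 h against 0.5 h), 1 (6 h against 0.5 h), 414 (9 h against 0.5 h), 308 (6 h against 3 h), 167 (9 h against 6 h), 240 (9 h against 3 h) and 658 (any time). With the local background capped, normexp called 12468 at 3 h and 10836 at 6 h relative to 0.5 h. Without a filter on dim probes these 2 counts were 11623 and 8974, and with only the 2 times in the fit 4538 and 2428. Cyclic loess called 6456 for 6 h against 0.5 h. With probes well above background on all 12 arrays, 9 h gave 4610 calls against 6 h and 4556 against 3 h. Slide as a random block, which only the 6 h arrays inform (correlation within slide -0.255), called 14076, 9018 and 17011 genes when 3 h, 6 h and 9 h were set against 0.5 h. It called 8130 between 3 h and 6 h, 12589 between 6 h and 9 h, 13835 between 3 h and 9 h and 21922 by the F test. Of the 5 genes, by the limma F test, 0 were called with either normexp setting or quantile scaling, 2 with trend and robust variances and 3 with the slide block. The strict filter, which drops Ntf3, and the common floor, which lies above nearly all Ntf3 levels, also gave 0.

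None of the differences that changed sign was called after the change. As first computed, those of Ntf3 against 0.5 h and of Spry4 for 9 h against 6 h (-0.59, limma adjusted p = 0.000893) were called. Bdnf turned at 3 h against 0.5 h to -0.019 with normexp and -0.022 with its capped form, to -0.068 (9 h against 0.5 h) and -0.047 (9 h against 6 h) with median scaling, and for 9 h against 3 h to 0.046 and 0.082 with the normexp forms and 0.067 with the mean of both probes. Ntf3 turned under capped normexp to -0.099, -0.12 and -0.054 against 0.5 h and to -0.018 (6 h against 3 h), 0.063 (9 h against 6 h) and 0.045 (9 h against 3 h), under normexp to 0.28 (9 h against 6 h) and 0.89 (9 h against 3 h), and under the common floor to -0.0072 (6 h against 3 h). Ntrk2 turned under median scaling to -0.056 (9 h against 6 h) and -0.20 (9 h against 3 h), and in the latter comparison to -0.088 under normexp and -0.064 with the mean of its probes. Median scaling turned Ntrk3 to -0.16 and Ngfr to -0.055 for 9 h against 6 h, and Ngfr to -0.11 for 9 h against 3 h. Spry4 turned to 0.29 for 9 h against 6 h with the mean of its probes. The cause of these changes was not tested.

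Leaving out each array in turn gave 4537 to 6879 genes called for 3 h against 0.5 h, 2154 to 4098 for 6 h against 0.5 h and 1653 to 3255 for 6 h against 3 h, and 1 to 2 of the 5 genes by the F test. Bdnf ranged from -0.049 to 0.14 (9 h against 0.5 h) and from -0.10 to 0.027 (9 h against 3 h). Ntf3 ranged from -0.067 to 0.19 (6 h against 3 h), from -0.16 to 0.0080 (9 h against 6 h) and from -0.13 to 0.13 (9 h against 3 h). Ntrk2 ranged from -0.22 to 0.024 (9 h against 0.5 h) and from -0.097 to 0.13 (9 h against 3 h).

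Same-numbered arrays of different times correlated between -0.133 and 0.223 in their deviations from the time means, with 3 of 18 pairs over 0.1, so the numbers were not taken to pair the arrays. With the replicate block 9034 genes were called for 9 h against 0.5 h (9999 without it) and 11165 at any time (13084 without), 1 of the 5 genes was called by the F test, and the limma adjusted p of Ngfr for 9 h against 0.5 h was 0.0544. Signal over background limits Ntf3 and Ntf4 at 0.5 h. The settings for single probes and for the pathway genes were chosen after seeing the data.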
